A study of Mus musculus with 5 samples.

Results

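A set of 10 genes of the pathway that carries the LIF signal into mouse embryonic stem cells (ESCs) was followed in 5 ESC lines: the ligand Lif, the receptor genes Lifr and Il6st, the kinase gene Jak2, the transcription factor gene Stat3, its feedback inhibitor Socs3, and the STAT3 target genes Bcl3, Junb, Pim1 and Pim3. Members were taken by name only, as every non-control probe whose gene name in the scanner files is one of these 10. That gave 16 probes of the 41174 on the array, for 9 of the 10 genes. No probe carries the name Lif. The study asked what disruption of ECAT11 changes in ESCs, and hybridized Cy3-labelled total RNA of each line to 1 one-colour Agilent array. The wild-type group held 2 lines, RF8 (strain 129sv, labelled male), the parental line that was targeted, and #620-2 (C57BL6/129sv, labelled female). The ECAT11EGFP/EGFP group held 3 lines of C57BL6/129sv origin in which an EGFP-IRES-Puro cassette replaces the coding region of both copies of ECAT11: #620-6 (labelled female), #757-1 and #757-2 (both labelled male). Replicates are separate lines, each with 1 array. The study calls the wild-type lines independent clones and the ECAT11EGFP/EGFP lines clones. The lines other than RF8 were derived on SNL feeder cells, and all 5 were grown in serum with LIF on gelatin, with LIF supplied as medium conditioned by cells that carried a LIF expression vector.

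LIF is a cytokine of the interleukin-6 family. It binds LIFR, which pairs with the shared receptor chain gp130, the product of Il6st, and JAK kinases attached to both chains then phosphorylate STAT3, which enters the nucleus and activates genes. In mouse ESCs this signal keeps cells undifferentiated in serum culture. SOCS3, induced by STAT3, binds gp130 and JAKs and limits the signal, and STAT3 also induces Junb, Bcl3 and the Pim kinase genes.

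A few probe sequences decide how the values of a gene with several probes can be read. The strand of the probe equalled that of the gene in RefSeq (GRCm38.p6) for 15 of the 16 member probes, against 98.2% of the 19269 probes for which both strands were known. The exception was 1 of the 2 Pim1 probes. Both are shown 5′ to 3′ as printed on the array, with no base marked. The first lies on the plus strand at chr17:27685743-27685802 in mm7, the genome build of the probe positions, and the second on the minus strand at chr17:27683630-27683689, while Pim1 is transcribed from the plus strand.
Pim1 A_52_P530291: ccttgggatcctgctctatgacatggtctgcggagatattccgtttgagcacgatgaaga
Pim1 A_52_P535619: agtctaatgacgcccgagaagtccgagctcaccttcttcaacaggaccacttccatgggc
Lifr had 4 probes, of which 3 are shown because they returned different signals for one gene. A_52_P579352, at chr15:7011508-7012314 on the plus strand in mm7, covers 807 bases of the genome with its 60 bases. A_52_P297113 lies at chr15:7017869-7017928 and A_52_P192699 at chr15:7012421-7012480, both on the plus strand.
Lifr A_52_P579352: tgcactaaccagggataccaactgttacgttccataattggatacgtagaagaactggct
Lifr A_52_P297113: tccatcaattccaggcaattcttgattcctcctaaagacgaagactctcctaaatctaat
Lifr A_52_P192699: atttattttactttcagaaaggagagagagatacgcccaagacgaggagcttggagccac
The 2 Junb probes share 22 bases, ttcgtgtctaaagtctatttta, and are therefore not independent measurements of that transcript. No annotation of mm7 was used, so whether a probe lies in an exon or an intron is not given.

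No member differed between genotypes by more than the spread between lines in the test used, and no leading probe ranged over more than 2-fold across the lines. Values below are log2 signals, in which each array is divided by the 75th percentile of its own intensities, so 0 is the level of that percentile and a difference of 1 is a 2-fold difference. They are set against each other only within a probe, since probes differ in how strongly they bind. With limma, 0 of the 15 member probes kept after the filter on dim probes were called between ECAT11EGFP/EGFP and wild-type ESCs, where a call is an adjusted p under 0.05 with a change of more than 2-fold. Over all 28972 kept probes 0.00345% were called. The methods' t-test called 0 member probes after adjustment too. At an unadjusted p under 0.05 limma gave 0 member probes, against 7.6% of all kept probes. The fitted change was positive for 4 of the 15 and negative for 11, with a median of -0.21 on the log2 scale, against -0.02 over all kept probes. The negative ones include Lifr A_52_P192699, Pim1 A_52_P535619 and Stat3 A_52_P569499, which were not well above background in #757-1 or #757-2. The Pim1 probe among them lies on the strand opposite to its gene, so it is counted by name and not as a measurement of Pim1. The 2 overlapping Junb probes are also among the 11, so these signs are not 11 separate measurements. The genotype groups did not overlap for 3 of the 15, the leading probes of Il6st, Lifr and Stat3, against 23.5% of the kept probes measured on each array. The leading probe of a gene is the one with the highest mean signal. The number of arrays limits the precision, and with 2 lines against 3 an exact permutation test cannot give a p below 0.1. With the slide as a block, the fitted change of the leading probes ran from -0.53 for Junb to 0.24 for Il6st, and the lowest adjusted p of a member probe was 0.606. In RNA of whole cultures, fewer cells expressing a gene and less RNA per cell cannot be told apart.

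Across the 5 lines, none of the 12 member probes well above background on all 5 arrays ranged over more than 2-fold from the lowest to the highest line. Among all 20622 probes of that quality 23.5% did. The ranges of the 9 leading probes had a median of 0.57 on the log2 scale, close to the 0.60 over all such probes, whose middle part ran from 0.37 to 0.97. Pim1 had the widest range of the leading probes, at 0.97, and Lifr the narrowest, at 0.32.

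**Figure D1:**
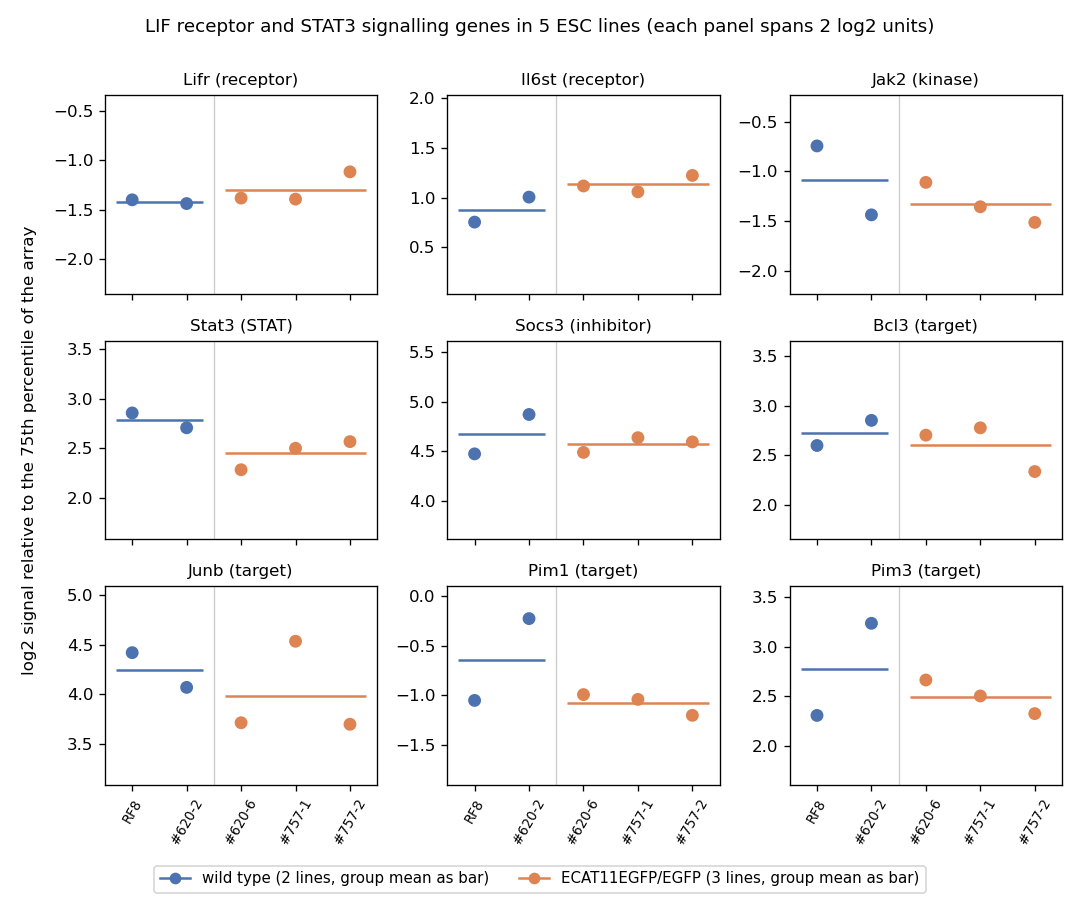
Log2 signal of the leading probe of 9 genes (vertical axis, relative to the 75th percentile of the array) in each of 5 ESC lines (horizontal axis), with wild-type lines in blue, ECAT11EGFP/EGFP lines in orange and a bar at each group mean. All panels span 2 log2 units. Pim1 and Pim3 were highest in #620-2, a wild-type line, and Junb was highest in #757-1.

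Of the receptor genes, Il6st, which encodes the signal-transducing chain gp130, measured 0.75 in RF8, 1.01 in #620-2, 1.12 in #620-6, 1.06 in #757-1 and 1.23 in #757-2 (chr13:109662276-109662335, mm7). All 3 ECAT11EGFP/EGFP lines thus lay above both wild-type lines, the nearest pair being #620-2 and #757-1. The group means were 0.88 ± 0.18 (SD, n = 2) and 1.13 ± 0.08 (SD, n = 3). The difference was 0.25 with a 95% interval from -0.18 to 0.69 and an adjusted p of 0.836 (limma, Benjamini-Hochberg).

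Lifr encodes the chain that binds LIF. Its leading probe gave -1.40 in RF8, -1.44 in #620-2, -1.38 in #620-6, -1.39 in #757-1 and -1.12 in #757-2. In 4 lines it lay within a range of 0.06, with #757-2 above them, so the groups did not overlap but the gap between them was smaller than the spread within the ECAT11EGFP/EGFP group (SD 0.16, n = 3). The difference was 0.12 (95% interval -0.32 to 0.56, adjusted p 0.945, limma). A further 2 Lifr probes passed the background threshold in all lines, and in both of them #620-6 and #757-2 were the highest lines. A_51_P113182 ranged from -2.29 in #620-2 to -1.63 in #757-2, and A_52_P297113 from -2.22 in #757-1 to -1.78 in #620-6. On both of these probes #757-1 lay within the range of the wild-type lines or just below it. The probe A_52_P192699 gave -4.55, -4.54 and -4.35 in RF8, #620-2 and #620-6, and was not well above background in #757-1 or #757-2. Its fitted change, -0.20, had the opposite sign to that of the other 3 Lifr probes. Arrays #757-1 and #757-2 shared the second slide, where the lowest spot well above background stood at -4.49 and -4.22, against -6.22 to -5.90 on the slide of the other 3 lines. A further probe, which carries a clone name in the files and is assigned to Lifr by the RefSeq table, ranged from -2.96 in RF8 to -2.63 in #757-2, with a difference between genotypes of 0.11 (adjusted p 0.951, limma).

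No level can be given for Lif under its own name. One probe, which the rule does not take, is described in the files as a testis cDNA clone for leukemia inhibitory factor (chr11:4226323-4226382, plus strand, mm7). It was well above background on all 5 arrays, with log2 signals of -1.73 in RF8, -1.61 in #620-2, -1.60 in #620-6, -1.30 in #757-1 and -1.41 in #757-2. Its lines #620-2 and #620-6 were almost level, and the difference between genotypes was 0.24 (95% interval -0.20 to 0.68, adjusted p 0.859, limma).

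Jak2, one of the kinases that gp130 and LIFR carry, was highest in RF8 at -0.74 and lowest in #757-2 at -1.51 (chr19:29011709-29011768). Between them lay #620-6 at -1.11, #757-1 at -1.36 and #620-2 at -1.44. The wild-type lines were thus almost at the ends of the range, 0.69 apart, and the difference between genotypes was -0.24 (95% interval -0.96 to 0.49, adjusted p 0.926, limma). It changed sign without RF8, to 0.11. The second Jak2 probe, A_52_P309376, was not well above background on any array and entered no test.

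Stat3 encodes the transcription factor at the centre of the pathway and had the one member probe printed on several spots, 10 of each array (chr11:100997323-100997382). It measured 2.86 in RF8, 2.71 in #620-2, 2.28 in #620-6, 2.50 in #757-1 and 2.57 in #757-2. Both wild-type lines lay above all 3 ECAT11EGFP/EGFP lines, by 0.14 at the nearest pair, #620-2 and #757-2. The group means were 2.78 ± 0.11 (SD, n = 2) and 2.45 ± 0.15 (SD, n = 3), a difference of -0.33, or 1.26-fold. The 95% interval ran from -0.77 to 0.11, with an unadjusted p of 0.112 and an adjusted p of 0.771 in limma, so the difference did not pass the test. With the slide as a block, which leaves #620-6 against both wild-type lines on their shared slide, it was -0.50 (adjusted p 0.606). It stayed below 0 in each fit without 1 line, from -0.41 without #620-2 to -0.25 without #620-6.

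The spots show how much of this lies within an array. The SD over spots ran from 0.03 in #620-6 to 0.09 in RF8, of the order of the median of 0.06 over 147 probes with several spots. In #620-6, 9 spots were used and lay between 2.23 and 2.32, below all spots of the other 4 lines, which started at 2.45 in #757-1. The spots of RF8 and #620-2 overlapped, as did those of #757-1 and #757-2. These spots share one labelled RNA and are no replicates of a genotype. The second Stat3 probe, A_52_P569499, starts 3136 bases away from the first in mm7 and was well above background in RF8 alone, at -5.82.

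**Figure D2:**
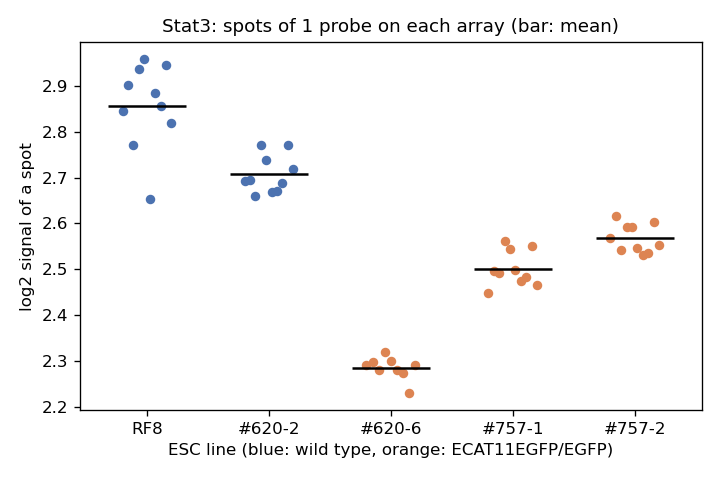
Log2 signal of each spot of the leading Stat3 probe (vertical axis) by ESC line (horizontal axis), with the mean of each line as a black bar, wild-type lines in blue and ECAT11EGFP/EGFP lines in orange. Spots of #620-6, between 2.23 and 2.32, lay below those of the other lines, and the means of both wild-type lines were the highest.

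Socs3, the feedback inhibitor, had a range of 0.40 over the lines, the narrowest after Lifr. Its 1 probe (chr11:118075211-118075270) gave 4.48 in RF8, 4.87 in #620-2, 4.49 in #620-6, 4.64 in #757-1 and 4.60 in #757-2. The ECAT11EGFP/EGFP lines all lay between the wild-type lines, which were the lowest and the highest. The difference between genotypes was -0.10 (95% interval -0.59 to 0.39, adjusted p 0.967, limma), an interval that stays within 2-fold on both sides.

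Socs3 was also the one member with a STAT-type motif near its start. Promoter windows from RefSeq (GRCm38.p6), from 250 bases before to 50 after the start of each gene, were searched for TTCNNNGAA, which reads the same on both strands. The 10 members had 12 windows, since Lifr and Pim1 have an additional start each, and 1 of the 12 held the motif. It is shown in capitals with 10 bases on either side, from chr11:117969502-117969530 on the minus strand, and begins 154 bases before the start.
Socs3 promoter: gaaaccagccTTCTTAGAAgggagggggg
Among all 32851 windows, 8.3% held it. The match describes these letters only.

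Of the 4 target genes, Pim1, Pim3 and Junb had the widest ranges over the lines among the members. The wild-type line #620-2 stood apart for Pim1 and Pim3. Pim2, in the wider pathway list below and named after its values were seen, went another way. Its probes A_51_P458428 and A_52_P608255 were highest in RF8, at 3.54 and 1.56, against 2.12 and 0.23 in #620-2. Pim1, a serine/threonine kinase gene, gave -1.05 in RF8, -0.23 in #620-2, -0.99 in #620-6, -1.04 in #757-1 and -1.20 in #757-2 with its plus-strand probe. The other 4 lines lay within 0.21 of each other, and #620-2 was 0.77 above the next. The difference between genotypes, -0.44 (95% interval -1.20 to 0.32, adjusted p 0.84, limma), therefore rested on #620-2, without which it was -0.03, and it was -0.85 without RF8. The minus-strand probe, A_52_P535619, lies on the strand opposite to Pim1, so its values are not read as a measurement of that transcript. It was highest in #620-2 at -4.75, with -5.46 in RF8 and -5.17 in #620-6. Its signal in #757-1 and #757-2 did not clear the background threshold.

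Pim3, a related kinase gene, had the same highest line. The values were 2.31 in RF8, 3.24 in #620-2, 2.66 in #620-6, 2.50 in #757-1 and 2.33 in #757-2 (chr15:88947531-88947590). RF8 and #757-2, of different genotypes and slides, were level at the low end. The difference between genotypes of -0.27 (95% interval -1.13 to 0.58, adjusted p 0.929, limma) turned to 0.19 without #620-2.

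Junb, a subunit of the AP-1 transcription factor, separated the lines in another way. It was high in #757-1 (4.54), RF8 (4.42) and #620-2 (4.07) and lower in #620-6 (3.71) and #757-2 (3.70) with the probe at chr8:83563097-83563156. The overlapping probe kept the same order, from 4.29 in #757-1 to 3.62 in #757-2. The largest gap thus lay inside the ECAT11EGFP/EGFP group, between #757-1 and #757-2, which shared a slide, a strain label and a sex label. These lines differed by 0.84, or 1.79-fold, and among the 20622 probes above background in every line 2.79% differed at least as much between them. Junb had the largest such difference of the 9 leading probes, so this low share belongs to the most extreme of them. The share was 75.5% for Stat3, 47.1% for Pim1 and 42.5% for Pim3. Between genotypes the difference was -0.26 (95% interval -1.14 to 0.62, adjusted p 0.938, limma).

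Bcl3, a nuclear cofactor of NF-kappaB, ran from 2.34 in #757-2 to 2.85 in #620-2 (chr7:17490887-17490946). RF8 was at 2.60, #620-6 at 2.70 and #757-1 at 2.78, so 4 lines lay close together and #757-2 below them. Its difference between genotypes was -0.12 (95% interval -0.67 to 0.43, adjusted p 0.961, limma), and it was 0.01 without #620-2 and also without #757-2.

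**Figure D3:**
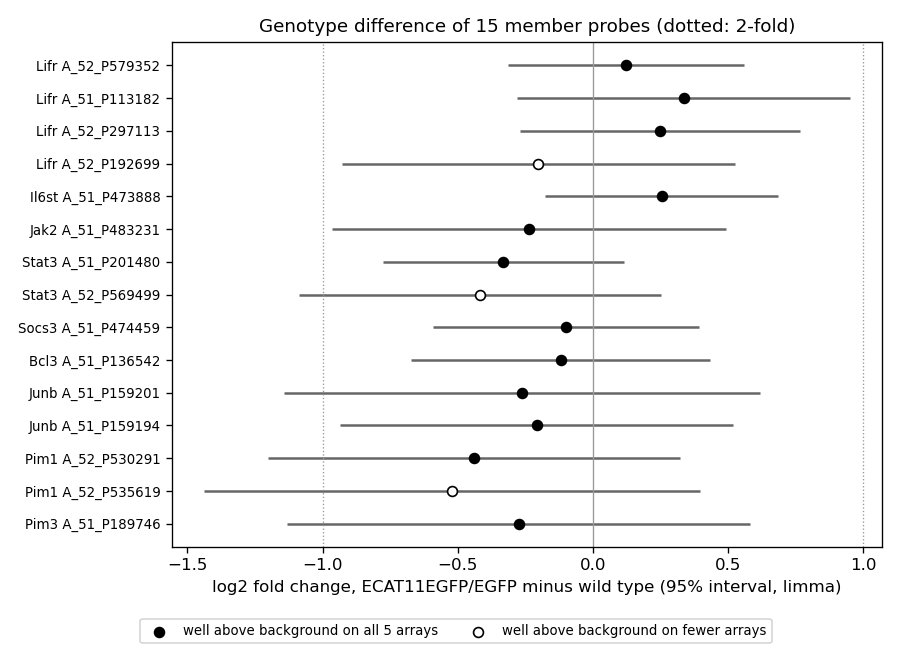
Log2 fold change of 15 member probes between ECAT11EGFP/EGFP and wild-type lines (points) with 95% intervals from limma (bars), filled where the probe was well above background on all 5 arrays. All 15 intervals include 0. Those of the leading probes of Lifr, Il6st, Jak2, Stat3, Socs3 and Bcl3 lie within the dotted 2-fold lines.

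By line rather than by genotype, #620-2 had the highest signal for 4 of the 9 leading probes, those of Bcl3, Pim1, Pim3 and Socs3. Over the 20622 probes it was highest for 20.8%. At the low end, #757-2 was lowest for 4 of the 9, those of Bcl3, Jak2, Junb and Pim1, against 13.6% over all such probes. No leading probe had its highest value in #620-6.

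The rest of the pathway was described with a list of 58 genes: other ligands and receptors of the interleukin-6 family, other JAK and STAT genes, adaptors, inhibitors and further target genes. All 58 had a probe, 109 in all, of which 105 were kept. As for the members, 0 were called between genotypes (the lowest adjusted p was 0.391, limma). The fitted change was positive for 56 and negative for 49 of them, and at an unadjusted p under 0.05 there were 2 probes higher and 7 lower in ECAT11EGFP/EGFP ESCs, 8.57% of the 105 against the 7.6% of all kept probes.

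Of these 9 probes, 4 had a fitted change of more than 2-fold, and none passed adjustment. The fitted size is no measurement for Il27ra and Osm, which were not well above background on some arrays. Il27ra, the receptor chain for interleukin-27 that pairs with gp130, gave -3.60 and -3.78 in RF8 and #620-2 and -5.37 in #620-6, and was not well above background in #757-1 and #757-2 (unadjusted p 0.00374, adjusted p 0.391, limma). Cntfr, the receptor chain for ciliary neurotrophic factor, was close to level in the 3 ECAT11EGFP/EGFP lines, between -3.91 and -3.89, and higher in RF8 at -3.24 and in #620-2 at -2.16. Its difference was -1.20 (SE 0.35, adjusted p 0.55, limma), and the wild-type lines stood 1.08 apart.

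Sall4, a zinc-finger transcription factor of pluripotent cells, was measured by probe A_51_P145260 at -1.24 in RF8, -1.14 in #620-2, -0.21 in #620-6, 0.62 in #757-1 and -0.22 in #757-2. The difference was 1.25 (SE 0.32, adjusted p 0.495, limma). The other Sall4 probe, A_51_P349087, gave a difference of 0.26 (unadjusted p 0.266), so the probes of this gene disagreed in size. Osm, a ligand of the same family, had 1 probe, A_52_P348614, that was well above background in #620-6 alone, at -5.46, so no fold is given. Its other probe, A_51_P291361, was well above background in RF8 at -5.10, #620-2 at -5.40 and #620-6 at -3.35 and not in #757-1 or #757-2 (adjusted p 0.912, limma). Myc, named after its values were seen, had 2 of its 3 probes among the 9, with differences of -0.69 and -0.59, less than 2-fold.

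The target genes of the list held probes with wider ranges over the lines than any member had, a difference that was not tested. Of their 25 probes above background in every line, 14 ranged over more than 2-fold, from 10 of 15 genes, against 0 of 12 member probes and 23.5% of all such probes. The list was chosen with earlier results of these data known, so these counts are a description. For 8 of the 14, among them 4 Tfcp2l1 probes that share a gene, RF8 was the lowest line. Klf4, a pluripotency factor induced by STAT3, was at 4.15 in RF8, 6.87 in #620-2, 6.15 in #620-6, 4.77 in #757-1 and 5.02 in #757-2. It was thus 6.59-fold higher in one wild-type line than in the other, with the ECAT11EGFP/EGFP lines between them.

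Tbx3, a T-box factor of naive ESCs, had the same order of lines as Klf4, with 1.18 in RF8, 4.45 in #620-2, 4.43 in #620-6, 2.27 in #757-1 and 2.94 in #757-2. The pair #620-2 and #620-6, of different genotype but both labelled female and on one slide, were level. Tfcp2l1, another STAT3 target of naive ESCs, was lowest in RF8 with all 3 probes named by the rule, by 3.23, 2.65 and 2.04 below its highest line.

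Pramel7 stood apart from these in #620-6. The gene, a LIF target of the PRAME family, was at 1.28 there and between -4.06 and -2.66 in the other 4 lines, which made it 40.3-fold higher in #620-6 than in RF8. Gbx2, a homeobox factor, was highest in #620-2 at 2.56 and lowest in #757-2 at 0.42. The differences between genotypes for these 5 genes had adjusted p-values from 0.702 for Gbx2 to 0.985 for Klf4, and their SDs within the wild-type group (n = 2) ran from 0.59 for Pramel7 to 2.31 for Tbx3.

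**Figure D4:**
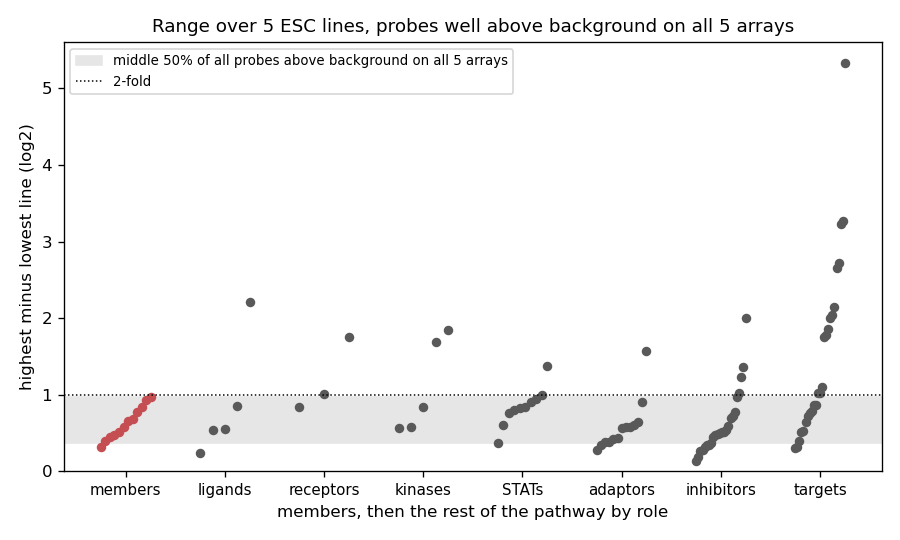
Range of the log2 signal over 5 ESC lines (vertical axis, highest minus lowest) for each probe well above background on all 5 arrays, for the members in red and the rest of the pathway by role in grey, with the middle part of all 20622 probes shaded and 2-fold as a dotted line. All 12 member probes lie below the dotted line and 14 of 25 target probes above it.

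**Figure D5:**
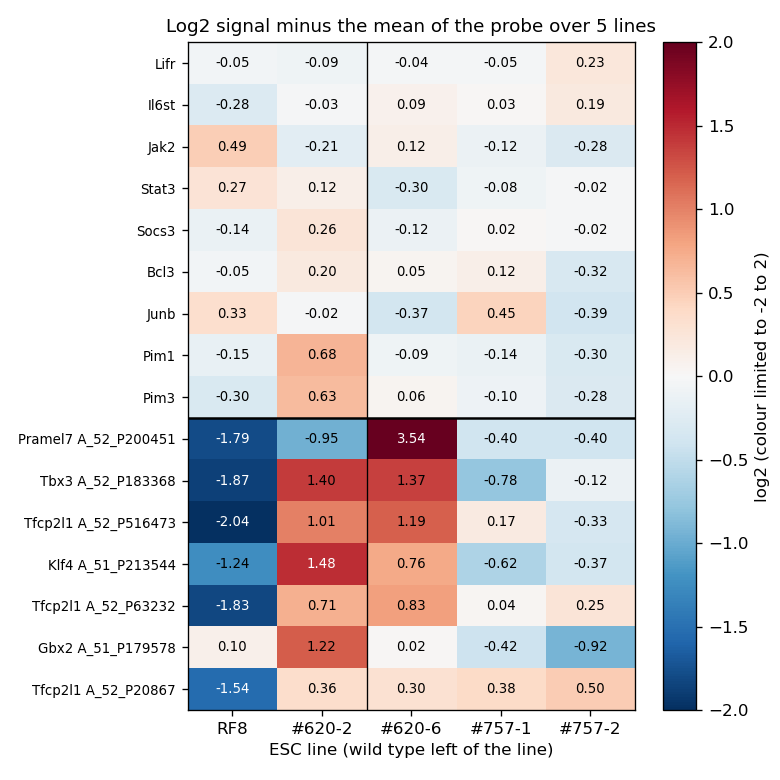
Log2 signal minus the mean of the probe over 5 ESC lines for the leading probes of 9 members (above the black line) and the target probes among those with the widest range (below), with a column for each line and wild-type lines on the left. Klf4, Tbx3 and Tfcp2l1 were lowest in RF8, while no member departed from its mean by more than 0.68.

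Probes with a pattern over the lines like that of a member were found by the root mean square difference of log2 signals, each centred on its own mean, over 5 lines and 20622 probes. Each likeness rests on 5 values only. For Socs3 the nearest were probes of Kif3b (0.01), Nckipsd (0.02), Atad3a (0.03), Exoc6 (0.03) and Tor1aip2 (0.03). For Pim1, whose pattern is a high value in #620-2, the nearest were Src (0.05), D16Ertd472e (0.06), Fahd1 (0.06), Lrrc23 (0.06) and Kifc3 (0.06). No other gene of the pathway list was among these 10.

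The labelled cell type was checked with marker genes. All 8 ESC markers (Pou5f1, Nanog, Sox2, Zfp42, Esrrb, Dppa5a, Tdgf1 and Fbxo15) were well above background on all arrays, and the log2 of their summed signal, most of it from Dppa5a, lay between 8.89 and 9.11. Single markers were less level. Zfp42 ranged 8.75-fold over the lines, Nanog 4.01-fold with its lowest signal in RF8, Fbxo15 3.37-fold, Tdgf1 2.45-fold and Esrrb 2.42-fold, while Pou5f1 and Sox2 ranged 1.42-fold and 1.45-fold. Of 10 fibroblast markers, which feeder cells express as well, 8 were well above background on all arrays, and the summed level read 4.02 for RF8, 3.36 in #620-2, 3.31 in #620-6, 1.44 in #757-1 and 2.37 in #757-2. The sum in RF8 came mostly from Col1a1 (2.98) and Col1a2 (2.52). Dcn was lowest in RF8 at -3.30, against -0.53 in #620-2 and -0.27 in #620-6, Lum was not well above background there, and Col3a1, Prrx1 and Thy1 were also higher in #620-2 and #620-6 than in RF8. The part of fibroblasts in the values of the members was not tested. Of 6 endoderm markers 3, and of 3 primed epiblast or trophoblast markers 1, were well above background on all arrays, with summed levels from -1.03 to 0.32 and from -1.98 to 0.31. Each marker of these lists was well above background on at least 1 array. The summed endoderm level was highest in #620-2 and #620-6, the lines in which Klf4 and Tbx3 were highest. Gata6, Sox7 and Sox17 were highest in these lines, and Afp was well above background only there. Dab2 and Gata4 went another way, with Dab2 lowest in #620-6 at -2.18 and Gata4 highest in RF8 at -5.11. The part of endoderm cells in the Klf4 and Tbx3 values was not tested. The number of probes above background was 26371 to 27144 on the first slide, 22061 for #757-1 and 21250 for #757-2.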

How the data were processed

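The authors scanned a single one-colour array per line and extracted it with Feature Extraction 9.5.3.1, and deposited spot intensities after background correction, not normalized between arrays, together with a table of log2 values of these arrays. Its column medians ran from -0.10 to 0.08, and its differences between arrays had a slope of 1.0 against those used here, so each probe is centred in it. Of 45018 spots, 1639 controls were left out, and spots marked as non-uniform or population outliers (0.335%) were dropped. Each intensity was scaled to the 75th percentile of its array, log2 was taken and spots of a probe were averaged. The filter kept the 28972 probes flagged Present on 1 array or more, as in the study's methods. Groups were compared with limma 3.58.1 (R 4.3.3, with version 1.17.8 of data.table), Benjamini-Hochberg over all kept probes, adjusted p under 0.05 and over 2-fold. The code was tested on simulated data. Figures were drawn with matplotlib 3.10.9.

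The members, the gene lists and the rules were chosen with earlier results of these data known. The rule named every member probe, pathway probes with an unadjusted p under 0.05 and over 2-fold, the 8 pathway probes with the widest range, and the 5 nearest patterns for Socs3 and for the member with the widest range. Probes were named as in the files or through RefSeq names (GRCm38.p6), which named 32719 probes, and mm7 positions are those of the files. ECAT11 is not analysed here, and for Lif only the probe described as its cDNA clone is given. Some probes that the rule names are not reported here.

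Alternatives were quantile normalization, normexp (offset 50), the deposited table, a stricter filter or none, marked spots kept, a slide block, a covariate for the sex label, the methods' t-test, the mean over the probes of a gene, and leaving out each line.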

Additional observations from a re-analysis of the deposited data

How the results depend on the processing

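The count of 0 member probes and of 0 pathway probes called between genotypes held under all alternatives run. At an unadjusted p under 0.05 (limma), 2 member probes passed with the sex label as a covariate, where 13.4% of all probes did. They were the leading Stat3 probe and the minus-strand Pim1 probe A_52_P535619, which lies opposite to its gene and was dim in #757-1 and #757-2. With 1 line left out the count ran from 0 to 2. It was 2 without RF8 (the leading probes of Pim1 and Pim3), where 7.54% of all probes passed. Without #620-2 it was 1 (Stat3 A_52_P569499, above background in RF8 alone), where 8.53% of all probes passed. Without each of the others it was 0. Of 130 fold changes under an alternative, for leading probes or the mean over the probes of a gene, 125 kept their direction. For Pim1 that mean includes the opposite-strand probe A_52_P535619. The lowest adjusted p was 0.368 (limma). With the stricter filter, no filter or the methods' t-test the fold change is the same value as in the main fit. Those fits could not turn, so the count of 125 overstates how stable the directions are. The 5 that turned all came from leaving out 1 line, where the fold change ran from -0.25 to 0.015 for Bcl3, from -0.58 to 0.11 for Jak2, from -0.74 to 0.19 for Pim3 and from -0.30 to 0.10 for Socs3. For Pim1 it ran from -0.85 to -0.03 with no change of sign. After the data were seen, the counts of probes with a range over 2-fold were also run with normexp, quantile normalization, the deposited table and each line left out: 0 member probes passed in each, and between 11 and 14 of the 25 target probes, where the share of all probes ran from 15.3% to 23.7%. No paired analysis was run, since the replicate numbers only name lines and pair none. By name, #620-2 and #620-6 share the number 620, and #757-1 and #757-2 the number 757. The labels do not say what a shared number means. RF8 and the 757 lines have no partner of the other genotype by name. Whether #757-1 and #757-2 are less separate than other lines was not tested. Arrays #757-1 and #757-2 had fewer probes above background, which limits the dim probes of Lifr, Pim1 and Il27ra and Osm A_51_P291361. On the first slide too, Stat3 A_52_P569499 was not well above background in #620-2 and #620-6, nor was Osm A_52_P348614 in RF8 and #620-2.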

Other observations

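The 2 ECAT11EGFP/EGFP lines in which Junb was lowest, #620-6 and #757-2, were also those with the lowest signal of the ESC marker Zfp42. Zfp42 was picked from the 8 ESC markers after the values were seen. How many of all probes share this lowest pair was not counted. At the high end the orders differed, with Junb highest in #757-1 and Zfp42 in RF8. Zfp42 gave 7.00 in RF8, 6.80 in #620-2, 4.01 in #620-6, 6.56 in #757-1 and 3.87 in #757-2, and its second probe 6.26, 5.97, 1.32, 5.80 and 1.35 in the same order. With 5 lines no correlation is given.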
